A study of Mus musculus with 6 samples.

Results

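The acute phase proteins are plasma proteins whose synthesis by hepatocytes changes with inflammation. Interleukin-6 and related cytokines signal through the shared receptor subunit gp130 to the transcription factor STAT3, interleukin-1 and tumour necrosis factor act through NF-kB, and C/EBP factors and glucocorticoids add to both inputs. In mouse liver the serum amyloid A proteins and the orosomucoids are among the most inducible products, while others vary little. The genes described here were 10 names chosen by symbol: *Saa1*, *Saa2*, *Saa4*, *Orm1*, *Orm2*, *Hp*, *Hpx*, *Lcn2*, *Apcs* and *Itih3*. Of these, 9 had a row among the 12792 rows of the deposited table, and 8 had values. The row of *Orm1* is empty in every library, and *Orm2* was not analysed here, so no statement is made on either. All 8 genes with values passed the filter on low values, which asked for a value above 0 in at least 3 libraries.

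The samples were 3 liver libraries labelled WT (wild type) and 3 labelled AKR1D1KO (Akr1d1 knockout, abbreviated KO), from polyadenylated RNA. All mice in both groups bore established tumours of Hepa 1-6, a hepatoma line from mouse. No tumour-free group was analysed here, so the values compare genotypes within tumour-bearing animals and hold no measure of the tumour's own effect. Strain, sex, age, the time after tumour injection, the form of the knockout allele and whether tumour tissue was part of the liver sample are not stated in the labels. The labels do not say whether each library is a separate mouse, so a p-value here reflects only sample-to-sample spread, which may be technical.

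Each deposited value reads as a linear ratio, in which expression in a library is divided by that gene's average across 7 libraries. Of these 7, 6 are analysed here. A value of 1 is therefore the gene's average, and levels cannot be compared between genes. Read totals are unknown, and the precision that depth gives a single value is therefore unknown too. The targeted gene went against its label: *Akr1d1*, the steroid 5-beta-reductase, stood at 0.826, 0.697 and 0.881 in WT replicates 1 to 3 and at 1.22, 1.21 and 1.35 in KO replicates 1 to 3, a ratio of means of 1.57 (limma adjusted p = 0.17). Whether the labels were exchanged or the allele leaves a transcript was not tested, and an exchange would turn every direction printed here. Directions below are between libraries as labelled. Across 12578 rows tested, 2 passed the threshold, an adjusted p under 0.05 in limma's moderated test, which is 0.0159% of rows. Of 10 hepatocyte markers 9 were tested and none of these, *Apob*, *Hnf4a* and *Cyp2e1* among them, was at 0 in any library, while *Alb* was not analysed here.

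*Lcn2*, *Saa2*, *Saa1* and *Apcs* had means 2.55-, 1.97-, 1.60- and 1.34-fold higher in the libraries labelled KO. *Hp*, *Hpx*, *Saa4* and *Itih3* had ratios of means between 0.926 and 1.06. None of the 8 passed the test over all rows, with a smallest limma adjusted p of 0.262 (*Lcn2*). At an unadjusted p under 0.05 there were 2, *Lcn2* and *Apcs*, both higher in the libraries labelled KO, where 6.5% of all rows were higher and 5.53% lower at that level (12% in either direction). Without KO replicate 2 this count was 4, with *Saa1* and *Saa2* added, where 9.02% of all rows were at that level in either direction. The other 5 omissions gave 2 or 3. In 3 of the 8 genes (*Lcn2*, *Saa2* and *Apcs*) the lowest library labelled KO exceeded the highest labelled WT, against 8.86% of all rows. In 0 of 8 did all KO libraries lie below, against 10.1% of rows, and 19% of rows had groups that did not overlap in either direction. The log2 change was above 0 in 5 of the 8, against 49% of rows. The median log2 change of the 8 genes was 0.23, where the median over all tested rows was -0.0043. These are counts over a short list, and no test of the list as a whole was made.

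**Figure D1:**
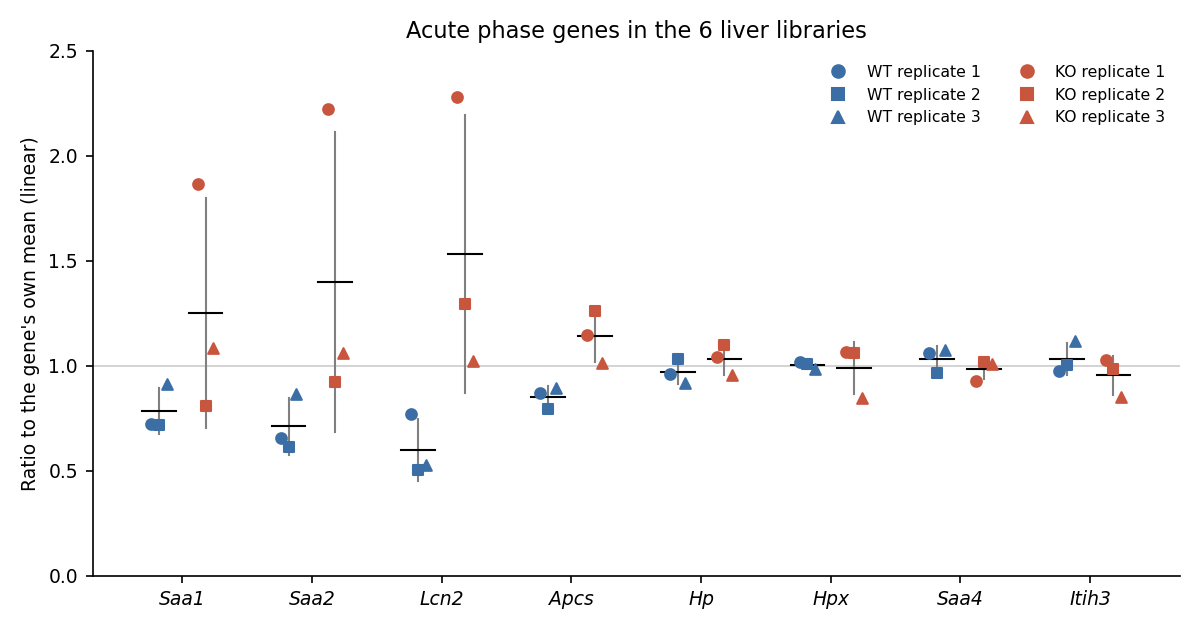
Ratio of each gene to its own mean (linear axis) in the 3 libraries labelled WT (blue) and the 3 labelled KO (red), with the replicate shown by the symbol, the group mean by a black line and 1 SD by a grey line. KO replicate 1 is the highest library for *Saa1* (1.87), *Saa2* (2.22) and *Lcn2* (2.28), while *Hp*, *Hpx*, *Saa4* and *Itih3* lie between 0.846 and 1.12 in all 6 libraries.

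The promoters of 4 of these genes are shown because *Saa1* and *Saa2* were both highest in KO replicate 1 while their neighbour *Saa4* was not, and because the *Apcs* groups did not overlap. Sequences are from RefSeq (GRCm38.p6, the same assembly as mm10), 5′ to 3′ on the gene's own strand, and start 250 bases before the transcription start. The stretch stops where GENCODE M21 annotates an exon, which shortens that of *Saa2* to 207 bases. Capitals mark matches to any of 4 motifs searched on both strands: TTCNNNGAA (STAT), CTGGGAA (the core of the IL-6 response element), TTNNGNAA (C/EBP), and for NF-kB GGG and CC separated by 5 bases of any kind. Matches are written as read on the gene's strand.
*Saa1*, chr7:46742981-46743230, minus strand: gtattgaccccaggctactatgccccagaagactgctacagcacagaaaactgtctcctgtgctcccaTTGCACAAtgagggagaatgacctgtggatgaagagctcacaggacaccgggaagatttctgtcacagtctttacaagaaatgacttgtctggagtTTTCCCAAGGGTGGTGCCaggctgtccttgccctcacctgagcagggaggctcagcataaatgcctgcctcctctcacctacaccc
*Saa2*, chr7:46751583-46751789, plus strand: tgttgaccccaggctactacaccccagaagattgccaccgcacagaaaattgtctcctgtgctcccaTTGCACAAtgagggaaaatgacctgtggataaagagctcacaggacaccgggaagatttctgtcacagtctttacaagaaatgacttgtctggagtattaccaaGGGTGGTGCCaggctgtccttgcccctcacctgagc
*Saa4*, chr7:46732604-46732853, minus strand: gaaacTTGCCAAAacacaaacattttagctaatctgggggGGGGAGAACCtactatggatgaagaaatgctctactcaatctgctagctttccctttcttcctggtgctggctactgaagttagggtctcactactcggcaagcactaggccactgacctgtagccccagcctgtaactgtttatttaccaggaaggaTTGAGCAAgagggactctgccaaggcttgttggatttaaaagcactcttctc
*Apcs*, chr1:172895055-172895304, minus strand: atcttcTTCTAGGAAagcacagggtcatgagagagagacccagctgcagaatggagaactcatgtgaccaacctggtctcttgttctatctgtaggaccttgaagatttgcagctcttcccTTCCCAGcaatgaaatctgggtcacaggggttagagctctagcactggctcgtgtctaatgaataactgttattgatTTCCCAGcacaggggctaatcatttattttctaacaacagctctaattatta
Over all 32851 RefSeq windows of 250 bases, 7.02% held the STAT motif, 9.10% the IL-6 response core, 36.8% the C/EBP motif and 45.8% the NF-kB motif, so the last 2 are common by their looseness. The STAT motif and the IL-6 response core can overlap, though no match did so in these windows.

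The *Saa1* and *Saa2* windows were 94.8% identical in a global alignment, and each held the C/EBP match TTGCACAA (175 to 182 bases before the start in *Saa1* and 176 to 183 in *Saa2*) and the NF-kB match GGGTGGTGCC (69 to 78 and 70 to 79 bases before). *Saa1* held a second C/EBP match, TTTCCCAA, directly before the NF-kB match. The *Saa4* window was 46.3% identical to that of *Saa1* and held 2 C/EBP matches and 1 NF-kB match at other positions. The *Apcs* window was the one of the 8 available for the listed genes with a STAT match (TTCTAGGAA, 236 to 244 bases before the start), and it held 2 matches to the IL-6 response core, 123 to 129 and 46 to 52 bases before the start. The *Lcn2* window held a C/EBP match (TTGCTCAA) and an NF-kB match (GGACTACCCC, 93 to 102 bases before the RefSeq start), and it is not printed because all of it lies in a GENCODE exon. A match describes letters only, and the absence of a match says only that those letters are not in the window.

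The serum amyloid A genes lie in 1 cluster on chromosome 7 (mm10 positions from GENCODE M21). *Saa1* (46740497 to 46742980, minus strand) and *Saa2* (46751790 to 46754313, plus strand) encode the inducible forms, which ride on high-density lipoprotein, and are divergent neighbours 8809 bases apart. *Saa1* stood at 0.720, 0.719 and 0.912 in WT replicates 1 to 3 and at 1.87, 0.810 and 1.08 in KO replicates 1 to 3. KO replicate 2 lay below WT replicate 3, so the groups overlapped, and the KO mean was carried by KO replicate 1. The means were 0.784 ± 0.111 and 1.25 ± 0.547 (SD, n = 3 each), with a log2 change of 0.55 (SE 0.29, 95% interval -0.17 to 1.26, limma adjusted p = 0.523). Without KO replicate 1 the log2 change was 0.24 and the ratio of means 1.21.

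*Saa2* was likewise highest in KO replicate 1 and lowest in WT replicate 2, with a wider range. Its values were 0.655, 0.612 and 0.865 in the WT libraries and 2.22, 0.920 and 1.06 in the KO libraries. The groups did not overlap, though KO replicate 2 exceeded WT replicate 3 by little. The means were 0.711 ± 0.135 and 1.40 ± 0.714 (SD, n = 3 each), with a log2 change of 0.80 (SE 0.33, 95% interval -0.012 to 1.61, limma adjusted p = 0.421). Without KO replicate 1 the log2 change was 0.44 and the ratio of means 1.39. The longest protein-coding *Saa1* and *Saa2* transcripts are 93.5% identical over 612 aligned positions, so how the authors' counting divided shared reads between them is uncertain, and they are not separate evidence. The ratio of the *Saa2* value to the *Saa1* value was 0.909, 0.852 and 0.949 in the WT libraries and 1.19, 1.14 and 0.978 in the KO libraries.

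*Saa4* (46727998 to 46732603, minus strand), which encodes the constitutive serum amyloid A of plasma, did not share this pattern. It stood at 1.06, 0.965 and 1.08 in the WT libraries and at 0.928, 1.02 and 1.01 in the KO libraries, with overlapping groups. Its log2 change was -0.063 (SE 0.083, 95% interval -0.27 to 0.14, limma adjusted p = 0.805). In KO replicate 1, where *Saa1* and *Saa2* were highest, *Saa4* was at its lowest. *Saa3*, another inducible gene of the cluster that is also expressed in many other tissues, stood at 0.881, 1.14 and 1.14 in the WT libraries and 1.02, 0.638 and 0.890 in the KO libraries. The *Saa1* value divided by the *Saa4* value was 0.678, 0.745 and 0.848 in the WT libraries and 2.01, 0.796 and 1.07 in the KO libraries, so KO replicate 1 stood apart from the other 5 in this ratio.

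*Lcn2* encodes lipocalin 2, which binds the iron-carrying siderophores of bacteria and is made by hepatocytes in inflammation as well as by neutrophils and macrophages (chromosome 2, 32384633 to 32388252, minus strand). It stood at 0.771, 0.504 and 0.525 in the WT libraries and at 2.28, 1.29 and 1.02 in the KO libraries. The groups did not overlap, and the highest library was 4.52 times the lowest. The means were 0.600 ± 0.148 and 1.53 ± 0.662 (SD, n = 3 each), with a log2 change of 1.17 (SE 0.31, 95% interval 0.41 to 1.92, unadjusted p = 0.00943 and limma adjusted p = 0.262). Without KO replicate 1 the log2 change was 0.86 and the ratio of means 1.93. This change was larger in size than that of 98.2% of the rows tested.

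Markers of other cells that make lipocalin 2 also had higher means in the libraries labelled KO, though 0 of them passed limma's threshold, and their part in the *Lcn2* difference was not tested. Of 13 neutrophil markers, 6 were tested and 5 of those had a positive log2 change (median 0.27, but 0.12 without KO replicate 2 and 0.49 without KO replicate 3). Their mean ratio ranged from 0.808 to 1.12 over the WT libraries and from 1.05 to 1.28 over the KO libraries. None of the 6 (*S100a8*, *S100a9*, *Retnlg*, *Csf3r*, *Mmp9* and *Elane*) was at 0 in a library, and 7 others, *Ngp*, *Camp*, *Ltf*, *Mmp8*, *Cxcr2*, *Ly6g* and *Mpo*, were not analysed here. *Csf3r*, the receptor of the neutrophil growth factor G-CSF, had a ratio of 1.27. It was the 1 of the 6 with all KO libraries above all WT libraries, against 8.86% of all rows. It was also the 1 with an unadjusted limma p under 0.05 (0.0207), against 6.5% of all rows higher at that level. *S100a8* and *S100a9* overlapped. The *Mmp9* groups also did not overlap, in the opposite direction (ratio 0.589), against 10.1% of all rows. Of 8 macrophage and monocyte markers, 7 were tested and 6 had a positive log2 change (median 0.32, but 0.12 without WT replicate 2 and 0.48 without WT replicate 3), with none at 0 in a library. At an unadjusted p under 0.05, 3 were higher (*Mpeg1*, *Ly6c2* and *Adgre1*), against 6.5% of all rows, and *Itgam* went the other way with a ratio of 0.818 and overlap. Their mean ratio ranged from 0.790 to 0.960 over the WT libraries and from 1.09 to 1.23 over the KO libraries. *Ly6c2*, a surface marker of inflammatory monocytes, stood at 0.841, 0.606 and 0.456 in the WT libraries and 1.92, 1.31 and 0.924 in the KO libraries. It was also the row most like *Lcn2* over the 6 libraries, as given below. In bulk tissue, more cells of a type and more RNA per cell cannot be told apart.

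*Apcs* encodes serum amyloid P component, the main acute phase pentraxin of the mouse (chromosome 1, 172893961 to 172895041, minus strand). Its values were 0.868, 0.794 and 0.893 in the WT libraries and 1.15, 1.26 and 1.01 in the KO libraries. The groups did not overlap, and KO replicate 2, not KO replicate 1, was highest. The means were 0.852 ± 0.0515 and 1.14 ± 0.124 (SD, n = 3 each), with a log2 change of 0.38 (SE 0.10, 95% interval 0.13 to 0.63, unadjusted p = 0.0109 and limma adjusted p = 0.271). Without KO replicate 1 the log2 change was 0.37, and over all 6 single-library omissions it ran from 0.31 to 0.45. *Crp*, the other short pentraxin, which is only weakly induced in mice, stood between 0.902 and 1.02 in all 6 libraries with a ratio of 1.02 (log2 change 0.03, SE 0.08).

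*Hp* and *Hpx* encode haptoglobin, which captures free haemoglobin, and hemopexin, which captures free heme. *Hp* (chromosome 8, 109575128 to 109579172, minus strand) stood at 0.959, 1.03 and 0.916 in the WT libraries and at 1.04, 1.10 and 0.954 in the KO libraries. The groups overlapped, and the log2 change was 0.082 (SE 0.089, 95% interval -0.14 to 0.30, limma adjusted p = 0.759). *Hpx* (chromosome 7, 105591613 to 105600137, minus strand) stood at 1.02, 1.01 and 0.982 in the WT libraries and at 1.06, 1.06 and 0.846 in the KO libraries. Its log2 change was -0.022 (SE 0.11, 95% interval -0.28 to 0.24, limma adjusted p = 0.950), and it was 0.077 without KO replicate 3, the library with its lowest value.

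*Itih3* encodes heavy chain 3 of the inter-alpha-trypsin inhibitor family, which is transferred to hyaluronan in the matrix (chromosome 14, 30908572 to 30923760, minus strand). It stood at 0.973, 1.00 and 1.12 in the WT libraries and at 1.03, 0.986 and 0.850 in the KO libraries, with overlapping groups. The log2 change was -0.10 (SE 0.10, 95% interval -0.35 to 0.15, limma adjusted p = 0.733). Its relatives had lower means in the libraries labelled KO without passing the test. *Itih4*, on the same chromosome (30886476 to 30902353, plus strand), stood at 1.14, 1.12 and 1.13 in the WT libraries and at 0.839, 0.730 and 0.878 in the KO libraries, a ratio of 0.722 with an unadjusted p of 0.00318 and a limma adjusted p of 0.199. *Itih1* had a ratio of 0.856 and *Ambp*, which encodes the light chain of the complex, 0.826, both with all KO libraries below all WT libraries. *Itih2* had a ratio of 0.936 with overlapping groups.

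KO replicate 1 was the highest of the 6 libraries in 4 of the 8 genes (*Saa1*, *Saa2*, *Lcn2* and *Hpx*), and in 15% of all rows. In *Saa1*, *Saa2* and *Lcn2* it stood at 1.97, 2.24 and 1.97 times the mean of KO replicates 2 and 3. *Hpx* stood at 1.12 times that mean, *Hp* at 1.01 and *Apcs* at 1.01. Other genes outside the 10 names shared the high value of KO replicate 1. *Orm3*, an orosomucoid gene with transcripts 86.1% and 88.0% identical to those of *Orm1* and *Orm2*, stood at 1.84 in KO replicate 1, at 1.04 and 0.815 in the other KO libraries and at 0.509, 0.834 and 1.04 in the WT libraries. The metallothionein genes *Mt1* and *Mt2* were at 1.64 and 1.78 in KO replicate 1, each 2.21 times the mean of the other KO libraries. These genes were named for this value after it was seen.

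The likeness of library patterns was measured as the root mean square difference of log2(ratio + 0.1) values, centred per gene, over the 6 libraries. All rows of a library share its depth and composition, and their part in the likeness was not tested. Among the other tested rows, *Saa2* ranked 12th nearest to *Saa1* (difference 0.16 log2), and *Saa1* ranked 4th nearest to *Saa2*. The 3 rows nearest to *Saa1* were *Hk3*, *Sfrp1* and *Fgl2*, at 0.10 to 0.11 log2. The 3 nearest to *Saa2* were *Ifit3b*, *Hs3st1* and *Cxcl9*, at 0.11 to 0.14 log2. *Lcn2* had *Ly6c2* nearest (0.16 log2), then *Gja5* and *Cav1* at 0.25 log2, and had *Saa2* at rank 34. *Apcs* lay nearest to *Hsd17b7*, *Elmo1* and *Cbx2*, at 0.030 to 0.053 log2, and *Saa1* ranked 9855th for it. *Hp*, *Hpx*, *Saa4* and *Itih3* lay nearest to *Habp4*, *Tmem55b*, *Kctd6* and *Zswim4*, at 0.015, 0.025, 0.0092 and 0.024 log2, and rows that hardly vary have small differences by construction. *Hpx* and *Hp* were at rank 558 and 1018 of each other.

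A further list held 28 genes taken as induced in inflammation, a placing of each gene, *Ambp* included, that these libraries cannot check. Of these, 26 were tested and 0 passed limma's threshold in either direction. At an unadjusted p under 0.05, 0 were higher and 3 lower (*Itih4*, *Ambp* and *Serpina3m*), against 6.5% and 5.53% of all rows. Log2 changes were positive in 10 and negative in 16 (median -0.065, and -0.034 without WT replicate 2, -0.036 without WT replicate 3, -0.038 without KO replicate 2 and -0.043 without KO replicate 3). All KO libraries lay below all WT libraries in 5 genes, namely *Itih4*, *Serpina3m*, *Serpina3n*, *Ambp* and *Lbp*, which encodes the lipopolysaccharide-binding protein (ratio 0.756), against 10.1% of all rows. In 1 gene, *Timp1*, all KO libraries lay above, against 8.86% of rows, with a ratio of 2.31. Its KO replicate 1 exceeded WT replicate 2 only at 0.883 against 0.881 and WT replicate 3 was at 0.171. The fibrinogen genes *Fga*, *Fgb* and *Fgg*, classical IL-6 targets, had ratios of 0.965, 0.951 and 0.984. The hepcidin gene *Hamp*, which STAT3 and BMP signalling activate, stood at 1.20, 0.707 and 0.662 in the WT libraries and at 1.43, 0.873 and 0.977 in the KO libraries.

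Plasma protein genes that inflammation lowers were measured by a second list. Of 13 such genes 11 were tested, 0 passed limma's threshold and 9 had a negative log2 change. Their median was -0.083, from -0.15 without KO replicate 1 to -0.060 without KO replicate 3 over single-library omissions. At an unadjusted p under 0.05, 0 were higher and 4 lower, namely *Ttr*, *Serpina6*, *Ahsg* and *Fetub*, against 6.5% and 5.53% of all rows. In 5 of the 11, these 4 and *F12*, all KO libraries lay below all WT libraries, against 10.1% of rows. *Ttr*, which encodes the thyroxine carrier transthyretin, stood at 1.09, 1.17 and 1.06 in the WT libraries and at 0.937, 0.877 and 0.924 in the KO libraries, a ratio of 0.825 (log2 change -0.25, SE 0.08, limma adjusted p = 0.309). *Serpina6*, which encodes corticosteroid-binding globulin, had a ratio of 0.773. *Apoa1*, *Rbp4* and *Trf* had ratios of 0.943, 0.966 and 1.03.

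**Figure D2:**
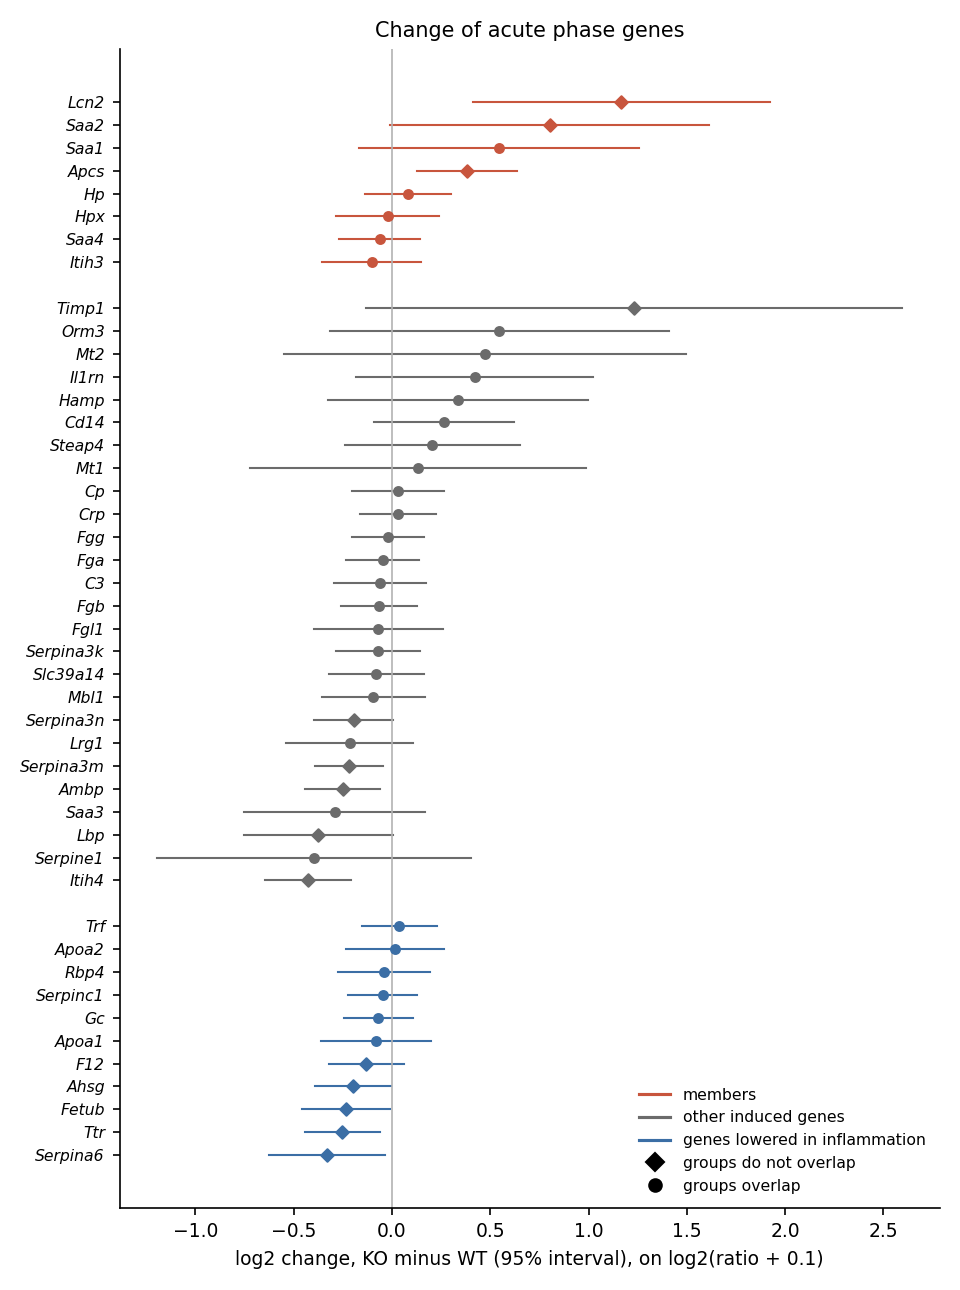
Log2 change between the libraries labelled KO and WT (points) with 95% intervals (lines), on the log2(ratio + 0.1) scale, for the 8 acute phase genes (red), 26 other induced genes (grey) and 11 genes lowered in inflammation (blue), with diamonds where the groups do not overlap. *Lcn2* (1.17) and *Timp1* (1.23) lie farthest right with wide intervals, and *Itih4* (-0.43) farthest left.

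Upstream of these genes, the cytokine ligands were sparsely represented. *Il6*, *Osm*, *Lif*, *Il11* and *Il22* were not analysed here and *Clcf1* has an empty row, so IL-6 itself and these other ligands were not measured. *Ctf1*, which encodes cardiotrophin-1 and was tested, stood at 1.11, 0.879 and 0.948 in the WT libraries. In the KO libraries it stood at 1.15, 0.877 and 1.12, a ratio of 1.07 with overlapping groups. Of the 7 ligands tested 0 passed limma's threshold and 0 had an unadjusted p under 0.05, against 12% of all rows. *Il1b* stood at 0.589, 0.682 and 2.00 in the WT libraries and at 1.20, 0.777 and 0.989 in the KO libraries. *Tnf*, the tumour necrosis factor gene, stood at 0.759, 1.65 and 1.91 in the WT libraries and at 0.341, 1.26 and 0.173 in the KO libraries. *Il1b* and *Tnf* overlapped between the groups and were not highest in KO replicate 1. *Il1a* and *Il33* were not highest there either, and *Il33* was at its lowest there (0.543). *Ctf1*, *Il18* and *Tgfb1* were highest in KO replicate 1, as were 15% of all rows.

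Among 11 cytokine receptors tested 0 passed, 2 had a positive and 9 a negative log2 change (median -0.089), where 49% of all rows were above 0. The IL-6 receptor gene *Il6ra* had a ratio of 0.884 and *Il6st*, which encodes gp130, 0.998, both with overlapping groups. *Osmr*, the oncostatin M receptor, had a ratio of 1.32 with overlap (log2 change 0.37, SE 0.16, limma adjusted p = 0.451). *Il1r1*, the signalling receptor of interleukin-1, stood at 1.21, 1.01 and 1.25 in the WT libraries and at 0.796, 0.770 and 0.719 in the KO libraries. Its ratio was 0.660 (log2 change -0.54, SE 0.10, unadjusted p = 0.0023, limma adjusted p = 0.182). It was the 1 receptor of 11 with an unadjusted p under 0.05, where 5.53% of all rows were lower and 6.5% higher at that level. It was also the 1 receptor whose groups did not overlap, where 10.1% of all rows had all KO libraries below all WT libraries.

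Of 17 transcription factors and kinases tested 0 passed limma's threshold and 0 had an unadjusted p under 0.05, against 12% of all rows. Their median log2 change was -0.018, with the sign turned at 0.039 without WT replicate 3 and 0.0017 without KO replicate 3. It was -0.027 without WT replicate 2, -0.0036 without KO replicate 1 and -0.0042 without KO replicate 2. *Stat3*, the main effector of IL-6, stood at 1.07, 0.992 and 1.12 in the WT libraries and at 0.946, 0.884 and 1.02 in the KO libraries, a ratio of 0.898. *Cebpb* and *Cebpd*, the inflammatory C/EBP factors, had ratios of 0.934 and 1.25. The NF-kB genes *Nfkb2* and *Relb*, which are themselves NF-kB targets, had ratios of 1.19 and 1.44. *Nfkb1*, *Rela* and *Nfkbiz* had ratios of 1.02, 0.848 and 0.837, all with overlap. *Nfkb2* was the 1 gene of the 17 whose groups did not overlap, with all KO libraries above, against 8.86% of all rows. Transcript levels of these factors do not report their activity.

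Feedback inhibitors are themselves induced by the signals they limit. Of 11 tested 0 passed, and at an unadjusted p under 0.05 there was 1 higher, *Tnfaip3*, and 1 lower, *Socs3*, against 6.5% and 5.53% of all rows. *Tnfaip3*, which encodes the NF-kB inhibitor A20, stood at 0.847, 0.686 and 0.772 in the WT libraries and at 1.18, 1.27 and 1.25 in the KO libraries. The gap between its groups exceeded the range within either (ratio 1.61, log2 change 0.62, SE 0.10, unadjusted p = 0.000694, limma adjusted p = 0.142). *Socs3*, the STAT3-induced inhibitor of gp130 signalling, stood at 1.69, 0.981 and 1.26 in the WT libraries and at 0.715, 0.665 and 1.08 in the KO libraries. Its groups overlapped, and its mean was lower in the libraries labelled KO (ratio 0.626, log2 change -0.61, SE 0.25, unadjusted p = 0.0482, limma adjusted p = 0.412), the opposite sign to *Saa1*, *Saa2* and *Lcn2*. *Socs1* and *Cish*, inhibitors of interferon and growth hormone signalling, had ratios of 0.563 and 0.444 with overlapping groups.

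**Figure D3:**
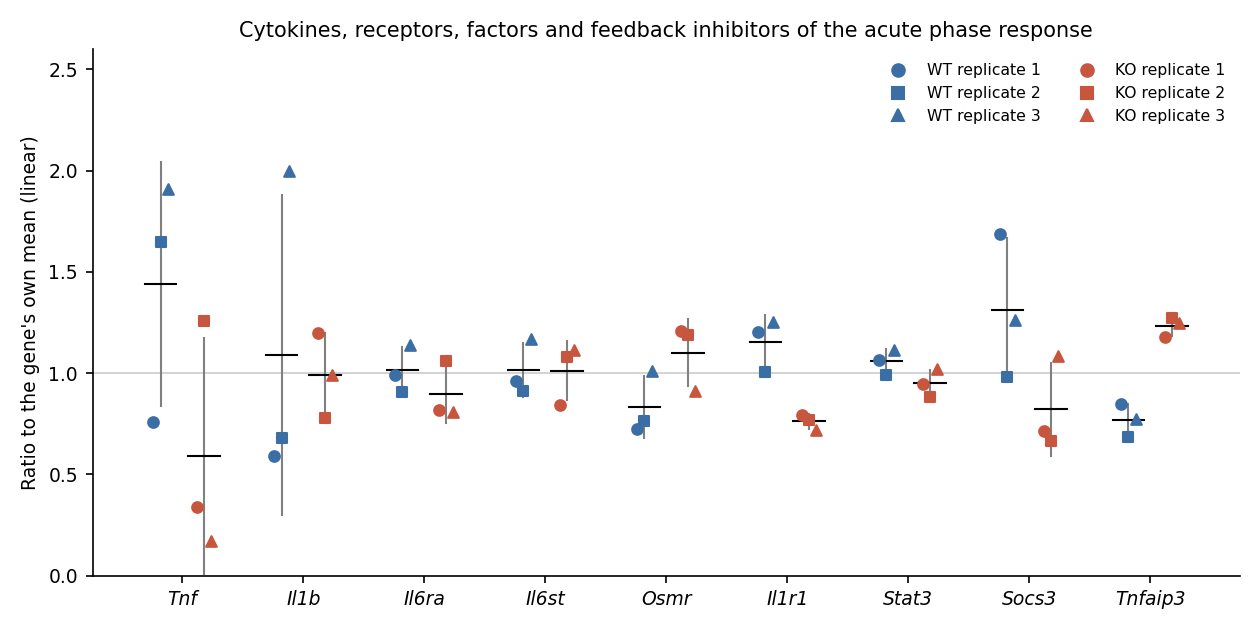
Ratio of each gene to its own mean (linear axis) for ligands, receptors, transcription factors and feedback inhibitors, drawn as in the plot of the acute phase genes by library. The groups are apart for *Il1r1* (ratio of means 0.660) and *Tnfaip3* (1.61) and overlap for *Socs3* (0.626) and *Stat3* (0.898).

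Of 11 receptors and partners of the proteins tested, 0 passed limma's threshold, with 1 higher (*Hmox1*) and 1 lower (*Itih1*) at an unadjusted p under 0.05, against 6.5% and 5.53% of all rows. *Hmox1*, which encodes the heme oxygenase that degrades heme taken up from hemopexin and haptoglobin complexes, stood at 0.923, 0.920 and 0.958 in the WT libraries and at 1.14, 1.16 and 1.06 in the KO libraries (ratio 1.20, limma adjusted p = 0.325). *Cd163*, the macrophage receptor of haptoglobin and haemoglobin complexes, had a ratio of 0.939 and *Lrp1*, the hemopexin receptor, 0.945, both with overlap. *Scarb1*, a lipoprotein receptor that also binds serum amyloid A, had a ratio of 0.852. *Tlr2* and *Tlr4*, innate receptors that serum amyloid A can engage, had ratios of 1.37 each with overlap.

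Set beside the marker lists, the mean centred log2 level of the 8 acute phase genes was -0.16, -0.25 and -0.12 in the WT libraries and 0.44, 0.087 and -0.0029 in the KO libraries. The mean over the hepatocyte markers, 9 of 10 tested, lay between -0.067 and 0.10 in all 6 libraries. In 3 of these 9, *Ttr*, *Cyp2e1* and *Serpina1a*, all KO libraries lay below all WT libraries, against 10.1% of all rows. Their ratios were 0.825, 0.850 and 0.844, and *Ttr* is also among the genes listed as lowered in inflammation. In 0 of the 9 did all KO libraries lie above, against 8.86% of rows. The Kupffer cell markers, 6 of 6 tested and none at 0, had a mean ratio of 0.795 to 0.993 over the WT libraries and 1.03 to 1.23 over the KO libraries, with 5 of 6 log2 changes above 0 and 0 past limma's threshold. *Marco*, a scavenger receptor of Kupffer cells, was at 2.06 in KO replicate 1 and between 0.671 and 1.05 in the other 5 libraries. Whether these lists bear on the acute phase values was not tested.

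**Figure D4:**
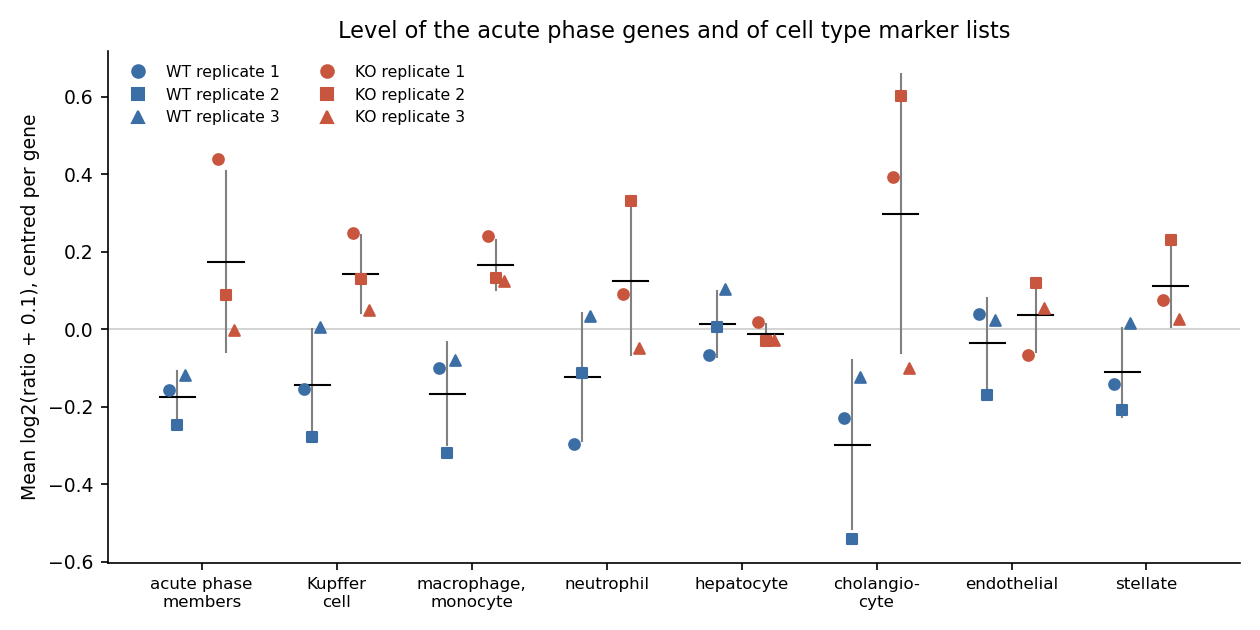
Mean log2(ratio + 0.1), centred per gene over the 6 libraries, for the 8 acute phase genes and for marker lists of liver cell types, by library, with the group mean (black line) and 1 SD (grey line). KO replicate 1 is highest for the acute phase genes (0.44), while the mean over the hepatocyte markers lies between -0.067 and 0.10, which does not show their single genes.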

How the data were processed

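The deposited table holds a gene symbol and 1 linear ratio per library. The highest value is 7, and the 6 values of a row total at most 7, a limit that 99 rows reach within 1e-09, so the authors' ratio is read as expression divided by the gene's mean over 7 libraries. This reading comes from the values. Per the submitters' processing notes, STAR 2.10, R 4.0.5 and mm10 were used, in roles the notes do not give. The sources used here do not give the counter, annotation, use of strand or library scaling. Of 12792 rows, 189 had no values, and 222 rows shared a name and stayed out of the gene lists.

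From these ratios, limma 3.58.1 (R 4.3.3) was fitted without a mean trend or block on log2(ratio + 0.1), over 12578 rows (3 or more libraries above 0), and p-values were adjusted over all of these by Benjamini-Hochberg. The pseudocount understates changes of low values. Ratios of means are linear. The fit recovered 31.3%, 65.7% and 80.3% of genes changed 1.5-, 2- and 4-fold in simulated data for 12578 genes (200 changed). The simulated noise was normal, independent between rows and libraries, and took each row's measured spread as its true spread. These shares are therefore not the sensitivity of the real comparison. A two-sided exact permutation test of 3 against 3 libraries cannot go below p = 0.1 and was not used. Named genes were the 10 listed, the leading members of each list and those with the smallest p, and the 3 rows nearest in pattern. Members, lists and tests were chosen with earlier results of these data known. Tried as alternatives were 15 settings, from pseudocount and filter to each library left out.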

Additional observations from a re-analysis of the deposited data

How the results depend on the processing

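None of the 8 acute phase genes passed limma's threshold under any of the 15 alternatives, and the signs of all of them were kept, except that *Hpx* ran from -0.073 to 0.077 (log2) over single-library omissions, changing sign without KO replicate 3. Log2 changes over the omissions ran from 0.24 to 0.79 for *Saa1*, 0.44 to 1.03 for *Saa2* and 0.86 to 1.40 for *Lcn2*, lowest without KO replicate 1 in each case. With a pseudocount of 1, which shrinks log2 changes by construction, they were 0.31 for *Saa1*, 0.45 for *Saa2*, 0.63 for *Lcn2* and 0.21 for *Apcs*, and the marker medians were 0.17 for macrophages and monocytes and 0.38 for cholangiocytes. The number of rows passing over the whole table, 2 as reported, was 1 with a pseudocount of 1, 0 with only rows above 0 in every library, 0 with a mean trend, 1 with the replicate block and 1 to 4 over the omissions. The cause of these shifts was not tested. Replicate numbers gave no clear pairing over the rows as a whole. Same-numbered libraries had correlations of deviations of -0.021, -0.0020 and 0.089 over rows, of which the last was the highest of all 9 pairs. KO replicate 1 correlated best with WT replicate 2 and KO replicate 2 with WT replicate 1. Such correlations over all rows cannot show whether single genes are paired. With the replicate block in limma, the SE of *Lcn2* was 0.15, against 0.31 without it. Its unadjusted p was 0.00177 against 0.00943, and its adjusted p 0.287 against 0.262. *Apcs* had an SE of 0.12 with the block, against 0.10 without it. Its unadjusted p was 0.0377 against 0.0109, and its adjusted p 0.422 against 0.271. Read depth is unknown, so no limit from depth can be given.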

Other observations

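Beside the acute phase genes, some markers of sinusoidal and Kupffer cells had groups that did not overlap, none past limma's threshold. All KO libraries lay above all WT libraries in 3 of 6 Kupffer cell markers and 1 of 6 endothelial markers, against 8.86% of all rows. In 0 of either list did all KO libraries lie below, against 10.1% of rows. *Lyve1*, a hyaluronan receptor of sinusoidal endothelium, stood at 0.730, 0.619 and 0.751 in WT replicates 1 to 3 and at 1.23, 1.50 and 1.19 in KO replicates 1 to 3 (adjusted p = 0.134), while *Stab2*, another receptor of the same cells, had a ratio of 0.840. *Timd4*, a marker of resident Kupffer cells, stood at 0.751, 0.707 and 0.967 against 1.14, 1.17 and 1.25 (limma adjusted p = 0.24). *Cd5l* and *Clec4f*, also of these cells, had ratios of 1.27 and 1.08, likewise without overlap, while *Folr2* had a ratio of 0.971 with overlap. Of 5 cholangiocyte markers tested, log2 changes were above 0 in 5, against 49% of all rows. Their median was 0.70, from 0.41 without WT replicate 2 to 0.84 without KO replicate 3 over single-library omissions. Their mean ratio was 0.802, 0.651 and 0.875 in the WT libraries and 1.31, 1.49 and 0.888 in the KO libraries. *Spp1*, which encodes osteopontin, had a ratio of 2.02. It alone had an unadjusted limma p under 0.05 (0.0173), against 6.5% of all rows higher at that level. Its groups did not overlap, whereas those of *Krt19*, *Krt7*, *Sox9* and *Epcam* did.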
